A study of Mus musculus with 4 samples.

Results

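The genes described here encode lysosomal proteases (cathepsins and their relatives), sugar, sulfate and lipid hydrolases, membrane and transport proteins and subunits of the lysosomal proton pump. They were taken by name from a list of 38 symbols that was drawn up with earlier results of these data known, so the choice was not blind to them. Of these, 36 were found by the listed symbol among 21937 gene symbols. Tfeb and Tfe3, transcription factors of lysosomal genes, were absent under these names. The rows Tcfeb and Tcfe3, which RefSeq lists as older symbols of the same genes, are described beside the 36 and counted in none of their totals.

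Read counts per gene came from splenic CD4+ T cells of B6 mice, 6 weeks old, activated with PMA plus ionomycin, a phorbol ester and a calcium ionophore that act downstream of the T cell receptor. There was 1 library for each of 4 labelled genotypes: wild type, Itchf/f Cd4cre (called Itch KO here), WWP2-/- (WWP2 KO) and DKO, a double knockout of Itch and WWP2. In Itchf/f Cd4cre mice the floxed gene is deleted by a Cre recombinase under Cd4 control, so the deletion reaches the T cell lineage, CD8 cells included; the label WWP2-/- names no Cre. Itch and WWP2 are ubiquitin ligases of the NEDD4 family, and the comparison asks what each does in T cell activation. Whether the wild-type mice carried Cre, how the double knockout was bred, how many mice stood behind a library and how long the cells were stimulated were not given in the labels.

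Total counts were between 17130747 and 17990392 per library. Wwp2, the targeted gene, stood at 1363 reads in wild type, at 1332 in Itch KO, at 4 in WWP2 KO and at 1135 in the library labelled DKO. The last value goes against the label, so "the library labelled DKO" names it below, and any direction drawn from it describes that library only. Itch had between 1914 and 2389 reads in every library; such counts also hold reads of exons that stay when others are deleted, so they check no Itch label. With 1 library per genotype no difference has a replicate check and no p-value is given.

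Lysosomes are acidic organelles in which soluble hydrolases digest proteins, sugars and lipids delivered by endocytosis and autophagy. The proton-pumping V-ATPase keeps them acidic, and heavily glycosylated proteins such as LAMP1 and LAMP2 line their membrane. TFEB and TFE3, basic helix-loop-helix factors, activate many lysosomal genes through E-box elements near the start of transcription. In T cells lysosome-related organelles also store cytotoxic proteins, and cathepsins take part in granzyme activation and in cell death.

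The E-box CACGTG and its longer form TCACGTGA, both of which read the same on either strand, were searched in promoter windows from RefSeq (GRCm38.p6), each running from 250 bases before to 50 bases after a gene's start. Every TCACGTGA also counts as a CACGTG. A window was available for 30 of the 36 members. CACGTG stood in 12 of them (40%), against 8.09% of all 27025 genes with a window and 12.8% of the 7185 of these that had at least 2 CPM (scaled counts, 1000000 per library) here. TCACGTGA stood in 6 of 30 (20%), against 1.12% and 2.57%. Base composition was not matched between these groups, and a match is no evidence that a factor binds there. Sites are shown for the members that differed most between libraries, and for others that stayed within 2-fold of wild type in every library. The letters can thus be set beside the levels below. Each site is printed on the gene's strand with 10 bases on either side. The place of its first motif base relative to the gene's start is given, and capitals mark the motif. The windows of Gaa and Glb1 also hold CACGTG, and their sites are not printed. The windows of Grn and Cd68 hold neither motif, and Ctsb was among the members with no window.
Ctsa, chr2:164833750-164833777, + strand, at -13, first of its sites: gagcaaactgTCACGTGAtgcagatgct
Ctsd, chr7:142387909-142387936, - strand, at -99: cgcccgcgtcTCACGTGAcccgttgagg
Atp6v0d1, chr8:105566051-105566078, - strand, at -4: cctactgcggTCACGTGAgacgcggtgc
Atp6v1a, chr16:44139374-44139401, - strand, at -132: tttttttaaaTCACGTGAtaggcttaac
Lgmn, chr12:102439126-102439151, - strand, at -49: gaatgtctgtCACGTGgtccatttta
Arsa, chr15:89477425-89477450, - strand, at -16: aactcagtgtCACGTGttgtctgctc
Mcoln1, chr8:3500463-3500490, + strand, at -46: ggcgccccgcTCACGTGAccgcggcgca
Gla, chrX:134601216-134601243, - strand, at -228, first of its sites: aagcgattgaTCACGTGAgcatctacgt
Lamp1, chr8:13159090-13159115, + strand, at -61, first of 4 sites: ggcaagatatCACGTGgtccagcgcc
Ctsl, chr13:64370741-64370766, - strand, at -236: cgttagaagcCACGTGctgatctaaa

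In the library labelled DKO the lysosomal genes took a larger part of the transcriptome than in the other libraries. The 36 members together held 0.173% of all reads in wild type (95% exact binomial interval 0.171 to 0.175), 0.178% in Itch KO (0.176 to 0.180), 0.177% in WWP2 KO (0.175 to 0.179) and 0.284% in the library labelled DKO (0.282 to 0.286). All intervals in this text cover counting error only. Of 34 members with a mean of at least 2 CPM over the 4 libraries, 23 (67.6%) were highest in the library labelled DKO and 4 (11.8%) lowest there. Among all 9926 genes at that level the same shares were 40.3% and 40.6%. In these bulk samples more cells of a type and more RNA per cell cannot be told apart.

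A gene was called higher or lower when the log2 ratio of its scaled counts (TMM factors, which bring the bulk of genes to a common level, and a prior count of 2) reached 1 in either direction, its mean was at least 2 CPM and the exact counting interval of its fold excluded 1. Against wild type, 8 of 34 members were called higher in the library labelled DKO, beside a background of 12.3% of all genes tested, and 0 were called lower, beside 6.34%. The members' median log2 ratio was 0.69 and that of all genes tested was -0.03. In Itch KO 1 of 34 was called higher (background 4.89%) and 0 lower (0.846%), with a median of 0.09 beside -0.02 for all genes. WWP2 KO had 0 of 34 called higher (0.282%) and 0 lower (0.161%), with a median of 0.00 beside -0.01. With a threshold of 1.5-fold, 18 members were higher (20.5% of all genes) and 3 lower (17.5%) in the library labelled DKO, and 6 were higher (8.79%) and 3 lower (4.39%) in Itch KO.

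**Figure D1:**
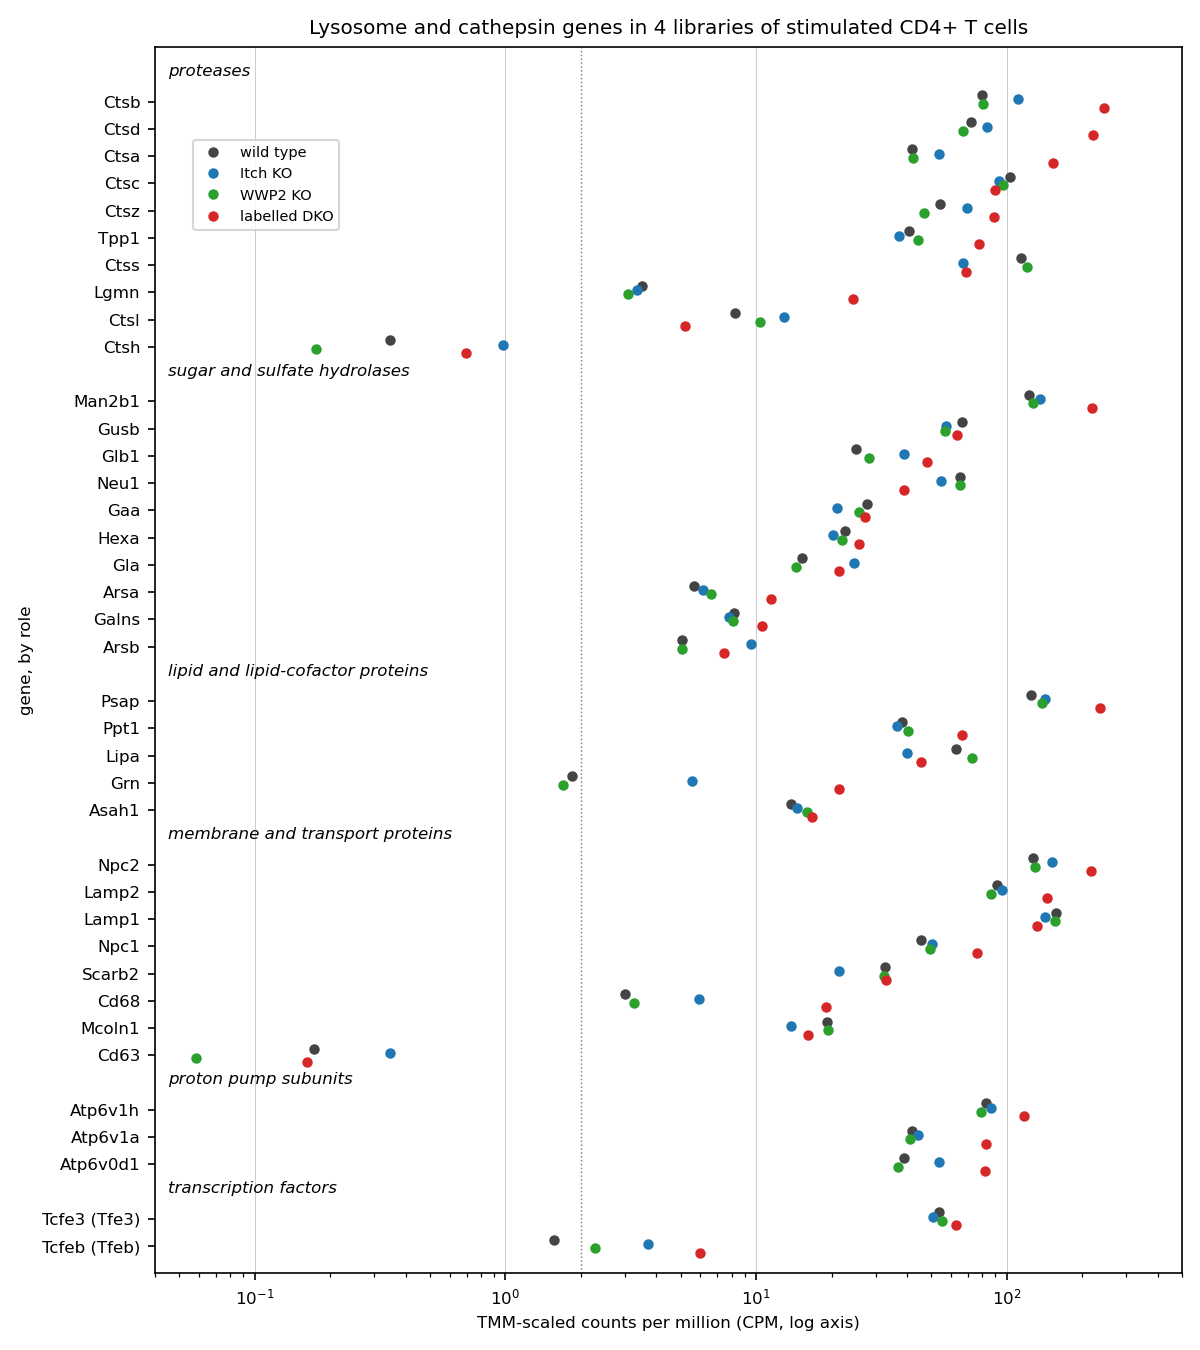
Scaled level of each gene in each library (x axis, TMM-scaled CPM, log scale; 1 point per library, dotted line at 2 CPM), grouped by role on the y axis. The library labelled DKO stands to the right of the others for Ctsa, Ctsb, Ctsd, Lgmn, Grn and Cd68, while Ctsh and Cd63 stay under 1 CPM in every library.

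Among the proteases, 4 of 9 tested members were called higher in the library labelled DKO against wild type and 0 lower. Over all genes tested these shares were 12.3% and 6.34%. Cathepsin A (Ctsa), a serine carboxypeptidase that also protects beta-galactosidase and neuraminidase, had 42.0 CPM in wild type, 53.6 and 42.2 in the Itch and WWP2 single knockouts and 153 in the library labelled DKO. That library was 3.64-fold above wild type (95% counting interval 3.35 to 3.95). Cathepsin B (Ctsb), a cysteine protease, stood at 79.5, 111, 80.5 and 244 CPM (wild type, then Itch KO, WWP2 KO and the library labelled DKO, the order of every such series here), 3.07-fold above wild type in the last (2.89 to 3.26). Cathepsin D (Ctsd), the main aspartic protease of lysosomes, stood at 72.3, 83.2, 66.9 and 221 CPM, a difference of 3.05-fold (2.86 to 3.25). For all 3 cathepsins wild type and WWP2 KO were close together and Itch KO lay somewhat above them, by 1.28-fold for Ctsa (1.16 to 1.41), 1.39-fold for Ctsb (1.30 to 1.49) and 1.15-fold for Ctsd (1.07 to 1.24).

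Legumain (Lgmn), the asparaginyl endopeptidase that trims cathepsins into their mature forms, had another pattern. It stood at 3.52 CPM in wild type, 3.34 and 3.09 in the Itch and WWP2 single knockouts and 24.3 in the library labelled DKO. The ratio to wild type was 6.90-fold in that library (5.27 to 9.17) and 0.95-fold in Itch KO (0.652 to 1.38). Lgmn was therefore high in 1 library, with the other 3 within counting error of each other. Tpp1, a tripeptidyl peptidase, was 1.90-fold above wild type in the library labelled DKO (1.74 to 2.08), just short of the threshold, and Ctsz, a carboxypeptidase, was 1.63-fold above (1.5 to 1.77).

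Other cathepsins went the other way or stayed level. Cathepsin S (Ctss), best known for processing the invariant chain in antigen-presenting cells, had 114 CPM in wild type, 67.1 and 120 in the Itch and WWP2 single knockouts and 68.9 in the library labelled DKO. Both libraries with an Itch-deficient label were low, 1.69-fold (1.57 to 1.82) and 1.65-fold (1.54 to 1.77) under wild type, without reaching 2-fold. Cathepsin L (Ctsl), an endopeptidase, stood at 8.25, 13.0, 10.3 and 5.22 CPM, lowest in the library labelled DKO and highest in Itch KO. Cathepsin C (Ctsc), the dipeptidyl peptidase that activates granzymes, ranged from 90.1 to 103 CPM over the 4 libraries. Cathepsin H (Ctsh), an aminopeptidase, had 6, 17, 3 and 13 reads and was too low to be tested.

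Of the sugar and sulfate hydrolases 1 of 10 was called higher and 0 lower in the library labelled DKO, a share near the 12.3% higher among all genes tested. The called gene was Arsa, the sulfatase of sulfatides, at 5.65 CPM in wild type, 6.17 and 6.59 in the Itch and WWP2 single knockouts and 11.5 in the library labelled DKO. Its ratio of 2.04-fold (1.60 to 2.61) lies close to the threshold, and a prior count of 5 (log2 0.99) or upper quartile scaling (0.98) took it below. Just under 2-fold in the same library were beta-galactosidase (Glb1), 1.92-fold above wild type (1.71 to 2.16), and alpha-mannosidase (Man2b1), 1.78-fold (1.69 to 1.88). Scaling by total counts brought Glb1 (1.01) and Atp6v1a (1.05) past the threshold.

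Within this group 3 of 10 genes stood above wild type in Itch KO at the 1.5-fold threshold and 0 below. Over all genes tested these shares were 8.79% and 4.39%. Arsb, a sulfatase of dermatan sulfate, had 5.08, 9.57, 5.07 and 7.48 CPM. Alpha-galactosidase A (Gla) had 15.3, 24.6, 14.4 and 21.5 CPM. For both, Itch KO was the highest library and the library labelled DKO the next; Glb1, the other gene, was 1.56-fold above wild type in Itch KO (1.38 to 1.76). The sialidase gene Neu1 was the lowest member by ratio in the library labelled DKO, at 64.9, 54.8, 64.9 and 38.9 CPM, 1.67-fold under wild type (1.52 to 1.84). Hexa, Gaa, Gusb and Galns, which act on gangliosides, glycogen, glucuronides and keratan sulfate, had log2 ratios of 0.18, -0.04, -0.07 and 0.36 there.

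Grn was listed with the lipid hydrolases and their cofactors. Of these 5 genes it was called higher in the library labelled DKO, and the other 4 were not called. Over all genes tested 12.3% were called higher. Grn encodes progranulin, a secreted and lysosomal precursor that is cut into granulins. It had 32 reads in wild type, 96 and 29 in the Itch and WWP2 single knockouts and 397 in the library labelled DKO, or 1.85, 5.53, 1.69 and 21.4 CPM. The ratio to wild type was 3.0-fold in Itch KO (1.99 to 4.63) and 11.6-fold in the library labelled DKO (8.07 to 17.2), the highest of all 34 members in both. The order of the libraries was stepwise, with WWP2 KO within counting error of wild type.

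Prosaposin (Psap), the precursor of the saposins that help hydrolases reach sphingolipids, was among the 3 highest members per length in wild type. It stood at 125, 143, 138 and 236 CPM, 1.90-fold above wild type in the library labelled DKO (1.80 to 2.0). The palmitoyl thioesterase gene Ppt1 was 1.73-fold above (1.58 to 1.91). Acid lipase (Lipa), which frees cholesterol and fatty acids from lipoprotein esters, differed in direction, at 62.9, 40.1, 73.0 and 45.4 CPM. Like Ctss, it was low in both libraries with an Itch-deficient label, at 0.638-fold (0.580 to 0.703) and 0.721-fold (0.659 to 0.790) of wild type. Acid ceramidase (Asah1) had a log2 ratio of 0.28 in the library labelled DKO.

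For membrane and transport proteins the count was 1 of 7 higher and 0 lower in the library labelled DKO. That share of higher calls was near the 12.3% among all genes tested. Cd68, a glycoprotein of late endosomes that is abundant in macrophages, had 3.0 CPM in wild type, 5.94 and 3.27 in the Itch and WWP2 single knockouts and 19.0 in the library labelled DKO. It was 6.35-fold above wild type there (4.74 to 8.67) and 1.98-fold in Itch KO (1.41 to 2.82), the latter just short of a call on 52 and 103 reads. The cholesterol carriers Npc1 and Npc2 were 1.66-fold (1.52 to 1.82) and 1.69-fold (1.61 to 1.78) above wild type in the library labelled DKO, and Lamp2 was 1.59-fold above (1.49 to 1.69).

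Lamp1, the highest of the membrane proteins per length in wild type and the holder of 4 E-boxes in its promoter window, was not higher there. It had 157 CPM in wild type, 142 and 156 in the Itch and WWP2 single knockouts and 132 in the library labelled DKO. The calcium channel gene Mcoln1, which also has the longer E-box, stood at 19.2, 13.8, 19.4 and 16.1 CPM, without a call in any comparison. Scarb2, the receptor that carries glucocerebrosidase to lysosomes, was 1.53-fold under wild type in Itch KO (1.34 to 1.75) and at 1.01-fold (0.895 to 1.13) in the library labelled DKO. The tetraspanin gene Cd63 had 3, 6, 1 and 3 reads and was too low to be tested.

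The 3 proton pump subunits were all above wild type in the library labelled DKO, and 1 was called. Among all genes tested 48.2% were above wild type there and 12.3% were called higher. Atp6v0d1, a subunit of the membrane-bound V0 sector, had 38.9 CPM in wild type, 53.7 and 36.9 in the Itch and WWP2 single knockouts and 81.6 in the library labelled DKO, a ratio of 2.10-fold (1.92 to 2.30). Atp6v1a, the catalytic subunit of the V1 sector, stood at 41.7, 44.4, 41.0 and 82.3 CPM, a ratio of 1.97-fold (1.80 to 2.16). The regulatory subunit gene Atp6v1h was 1.41-fold above wild type (1.32 to 1.51).

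Of the transcription factors, Tcfeb (Tfeb) had 27 reads in wild type, 64 and 39 in the Itch and WWP2 single knockouts and 111 in the library labelled DKO. It was called higher in Itch KO, at 2.37-fold (1.49 to 3.87), and in the library labelled DKO, at 3.84-fold (2.50 to 6.08), from a level of 1.56 CPM in wild type. Tcfe3 (Tfe3) was nearly level, at 53.8, 50.7, 55.2 and 62.9 CPM. Its ratio to wild type in the library labelled DKO was 1.17-fold (1.07 to 1.28). TFEB and TFE3 are known to be controlled largely by phosphorylation and entry into the nucleus, which these counts do not measure.

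Members with and without an E-box in the promoter window were set side by side for the library labelled DKO against wild type. With CACGTG, 5 of 12 tested members were called higher, with a median log2 ratio of 0.96 and a range from -0.65 (Ctsl) to 2.75 (Lgmn). Without it, 2 of 17 were called higher, with a median of 0.67 and a range from -0.74 (Neu1) to 3.45 (Grn). With the longer TCACGTGA, 3 of 6 were called higher, with a median of 1.02 and a range from -0.25 (Mcoln1) to 1.86 (Ctsa). Of the 23 without the longer form 4 were called higher, with a median of 0.67 and a range from -0.74 (Neu1) to 3.45 (Grn). Over all genes tested 12.3% were called higher in this comparison. What part the sites have in these ratios was not tested.

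**Figure D2:**
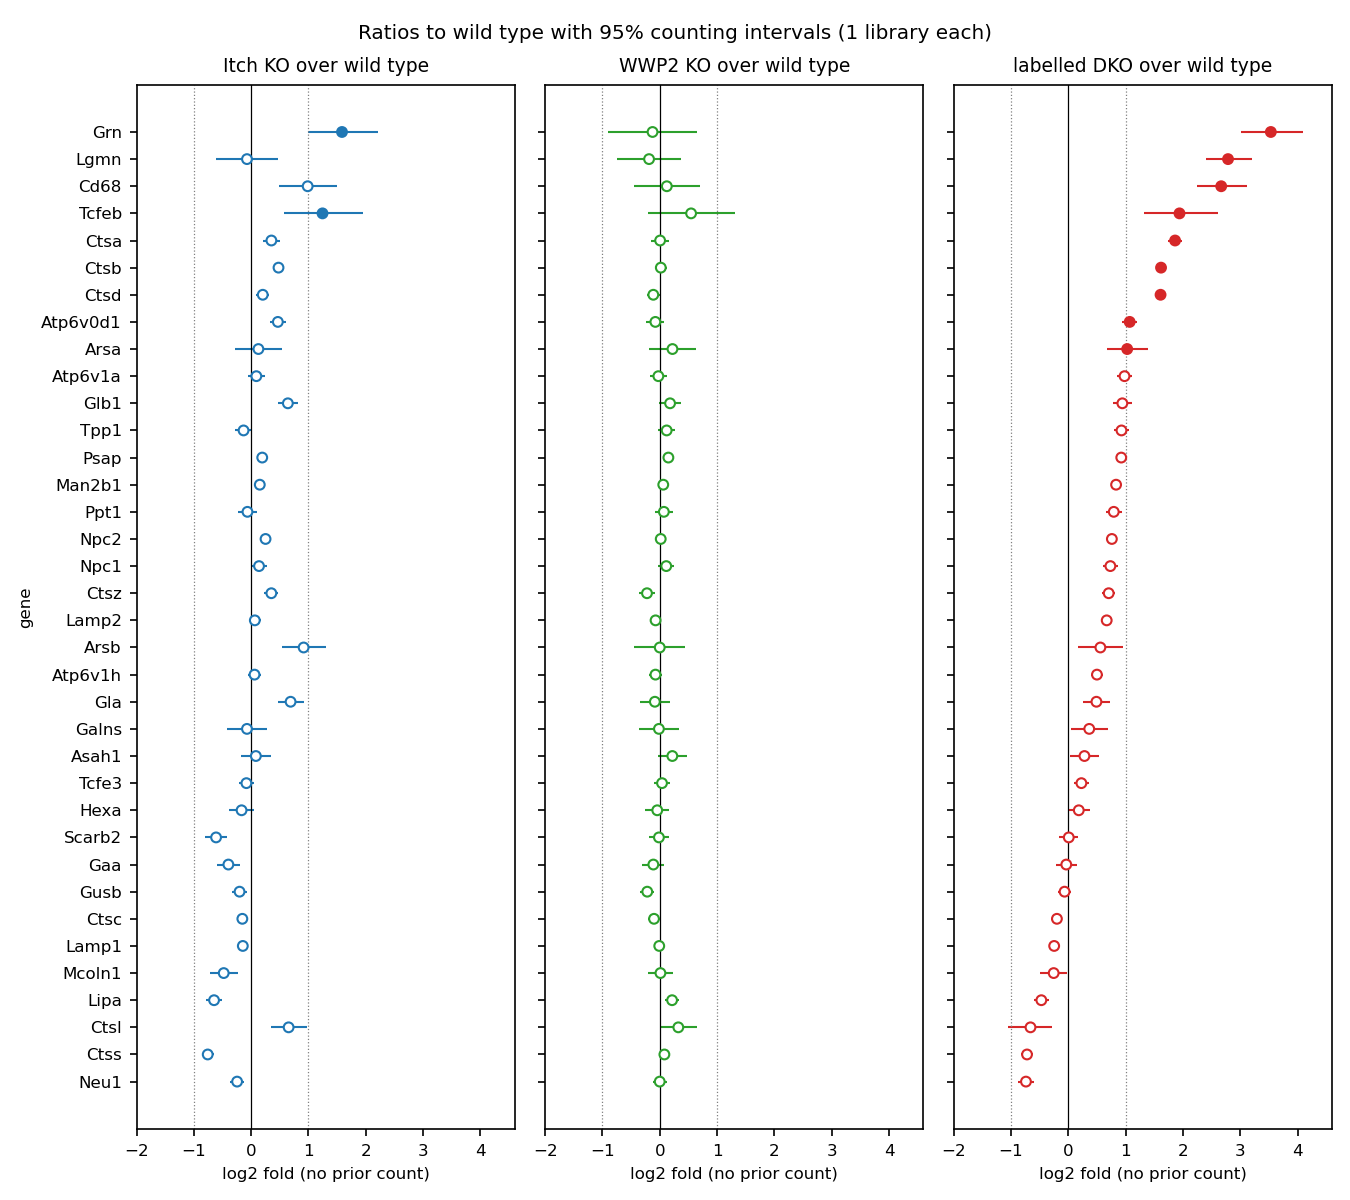
Log2 fold over wild type (x axis, no prior count) for the 34 tested members and for Tcfeb and Tcfe3 (y axis, sorted by the third panel), in 1 panel per library; bars are 95% counting intervals, filled points passed the 2-fold rule, dotted lines mark 2-fold. The WWP2 KO panel has 0 filled points, the Itch KO panel has Grn and Tcfeb, and the panel of the library labelled DKO has the 8 called members and Tcfeb.

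The library labelled DKO was also set against each single knockout, to see what it showed beyond them; these comparisons share libraries with those above. Against Itch KO, 7 of 34 members were called higher (background 9.18%) and 1 lower (5.16%). Those higher were Ctsa at 2.85-fold (2.64 to 3.07), Ctsb at 2.20-fold (2.09 to 2.33), Ctsd at 2.65-fold (2.50 to 2.82), Lgmn at 7.26-fold (5.51 to 9.71), Tpp1 at 2.08-fold (1.90 to 2.29), Grn at 3.86-fold (3.08 to 4.87) and Cd68 at 3.21-fold (2.57 to 4.03). Ctsl was the member called lower, 2.49-fold under Itch KO (1.95 to 3.19). The proteases thus gave 5 of the 7 higher calls and the only lower one.

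Against WWP2 KO, 8 of 34 members were called higher (11.6%) and 0 lower (6.05%). They were Ctsa, Ctsb, Ctsd, Lgmn, Grn, Cd68, Atp6v0d1 and Atp6v1a; the last stood at 2.01-fold (1.83 to 2.20) and lost its call with a prior count of 5 (log2 1.0, just below) or upper quartile scaling (0.97). Itch KO against WWP2 KO gave 1 member higher (4.62%), Grn at 3.27-fold (2.14 to 5.14), and 0 lower (1.15%). Lipa was nearest to a lower call there, 1.82-fold under WWP2 KO (1.66 to 2.0), followed by Ctss, 1.79-fold (1.66 to 1.92).

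Itch KO over wild type and the library labelled DKO over WWP2 KO share no library, and both carry an Itch-deficient label over an Itch-intact one. Of the 34 members, 19 were above 0 in both log2 ratios and 6 below 0 in both. For all 9926 genes tested these counts were 2900 and 3468. Across members Pearson's r was 0.63 and Spearman's rho 0.62 (n = 34); across all 9926 genes tested they were 0.70 and 0.45. These are descriptions across genes, which are not independent replicates, and the second ratio rests on the doubted library. Ctss (-0.76 and -0.80) and Lipa (-0.65 and -0.68) had nearly the same value in both ratios, as had Gla (0.68 and 0.57). Lgmn (-0.07 and 2.93), Ctsa (0.35 and 1.85) and Ctsd (0.20 and 1.72) stood well apart in them. Ctsl had opposite signs, 0.65 and -0.97.

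**Figure D3:**
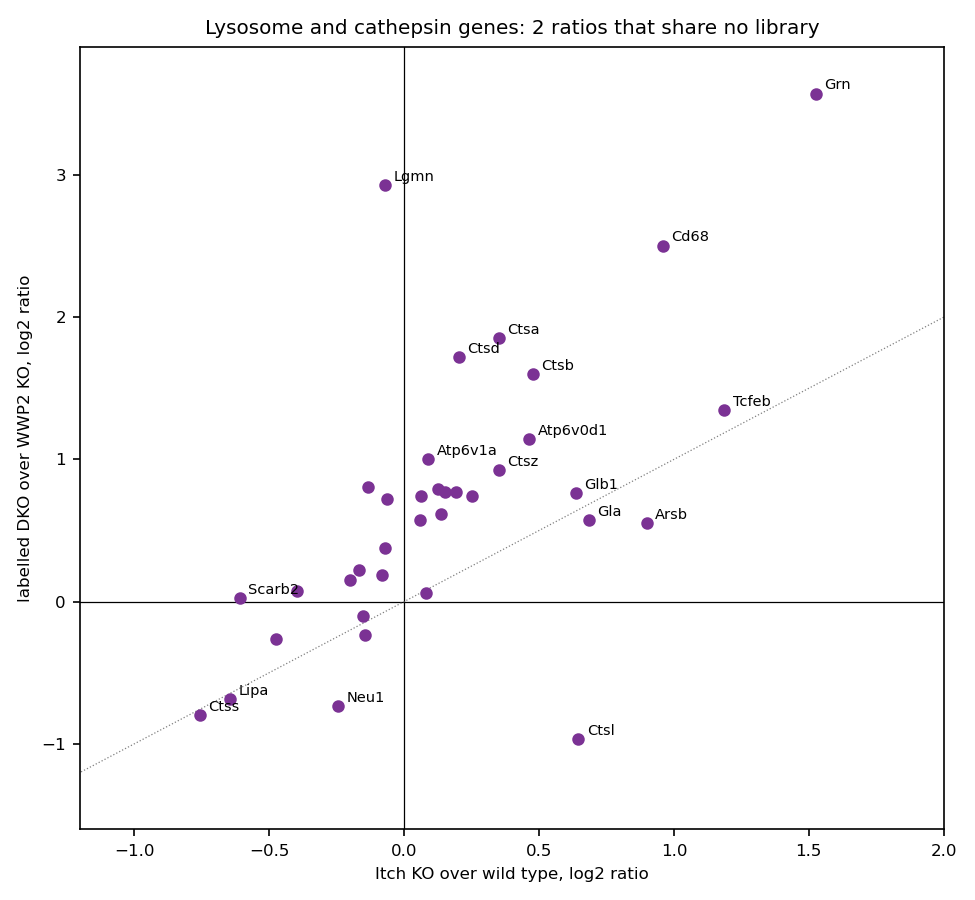
Log2 ratio of Itch KO over wild type (x axis) against that of the library labelled DKO over WWP2 KO (y axis); points are the 34 tested members plus Tcfeb and Tcfe3, with the outer ones named and the line of equal ratios dotted. Ctss and Lipa lie on the line at about -0.7, Lgmn, Ctsa and Ctsd far above it, and Ctsl at 0.65 and -0.97 below it.

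The level in the library labelled DKO was next compared with the product of the single-knockout ratios, the level that would follow if the 2 ratios to wild type multiplied. The excess on the log2 scale had a median of 0.50 over the 34 members and of 0.04 over all genes tested. It equals the log2 ratio of the library labelled DKO to Itch KO less that of WWP2 KO to wild type. The latter lay between -0.22 and 0.32 for the members, so the excess largely repeats the comparison with Itch KO above. The library labelled DKO kept Wwp2 reads, so the product is not known to be its expected level. An excess of 1 or more was found for 6 members (8.83% of all genes) and a shortfall of 1 or more for 1 (5.29%). Those in excess were Lgmn by 3.0 (2.35 to 3.65), Grn by 2.04 (1.27 to 2.82), Cd68 by 1.54 (0.92 to 2.16), Ctsd by 1.52 (1.37 to 1.66), Ctsa by 1.5 (1.32 to 1.68) and Ctsb by 1.12 (0.99 to 1.25). Ctsl fell short, at -1.62 (-2.08 to -1.15). Ctss, Lipa and Gla had values of -0.04, -0.04 and -0.11, with intervals that included 0.

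Levels of different members were compared per kilobase of exon (GENCODE M21 lengths on GRCm38, which is not the build of the counts). In wild type Ctss led with 83.6 CPM per kb, followed by Lamp1 with 70.2, Psap with 45.4 and Npc2 with 38.7. Ctsd was at place 7 with 34.0 CPM per kb. In the library labelled DKO Ctsd led with 104 CPM per kb, followed by Psap with 86.2, and Ctss was at place 9 with 50.7. Itch KO was led by Lamp1 at 63.5 CPM per kb and WWP2 KO by Ctss at 88.4. Grn, Ctsh and Cd63 closed the order in wild type, at 0.789, 0.214 and 0.119 CPM per kb.

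Lysosomal genes outside the list were described with 4 further lists holding 68 tested genes, of which 13 were higher and 1 lower in the library labelled DKO than in wild type, with a median log2 ratio of 0.42. Over all genes tested 12.3% were higher and 6.34% lower in that comparison, and the lists below are to be read beside these shares. The hydrolases gave 7 of 23 higher and 0 lower. Gm2a, the activator of ganglioside breakdown, was 8.84-fold above wild type (7.74 to 10.1), on 246 reads in wild type, 474 and 246 in the Itch and WWP2 single knockouts and 2330 in the library labelled DKO. The lowest of the called hydrolases by ratio was the beta-mannosidase gene Manba, at 2.09-fold (1.70 to 2.58).

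Of 24 further membrane proteins 5 were higher and 1 lower. Slc15a3, a transporter of peptides and histidine, had 66, 316, 51 and 701 reads. It was 4.79-fold above wild type in Itch KO (3.66 to 6.34) and 9.91-fold in the library labelled DKO (7.69 to 13.0). The lipid transporter gene Abca2 was 3.76-fold above wild type in the latter (3.42 to 4.13) and Mfsd8 2.27-fold (1.77 to 2.92), while Laptm4b was 2.24-fold below (1.46 to 3.50). Of 14 further proton pump genes 1 was higher and 0 lower; Atp6v0a1, a V0 subunit, was 11.7-fold above wild type (9.06 to 15.4) on 63 and 791 reads. The list of further lysosomal proteases, which also held a phospholipase gene, gave 0 of 7 in either direction.

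Genes that deliver enzymes to lysosomes through the mannose 6-phosphate pathway had 0 of 13 higher and 1 lower in the library labelled DKO, Gga2, a sorting adaptor, at 2.18-fold below wild type (1.90 to 2.50). Inhibitors of cathepsins and other proteases had 3 of 8 higher and 0 lower. Cst7, which encodes cystatin F, an inhibitor of cathepsins C and L, had 45 reads in wild type, 148 and 43 in the Itch and WWP2 single knockouts and 1330 in the library labelled DKO. It was 3.29-fold above wild type in Itch KO (2.34 to 4.70) and 27.6-fold in the library labelled DKO (20.5 to 38). Serpinb1a was 6.40-fold above (5.19 to 7.96) and Serpinb6a 2.74-fold (2.23 to 3.38). In Itch KO the 8 inhibitors gave 3 higher and 0 lower, beside 4.89% and 0.846% of all genes tested. Those called there were Cst7, Serpinb1a and another inhibitor, while Serpinb6a stood at 1.10-fold (0.860 to 1.41).

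**Figure D4:**
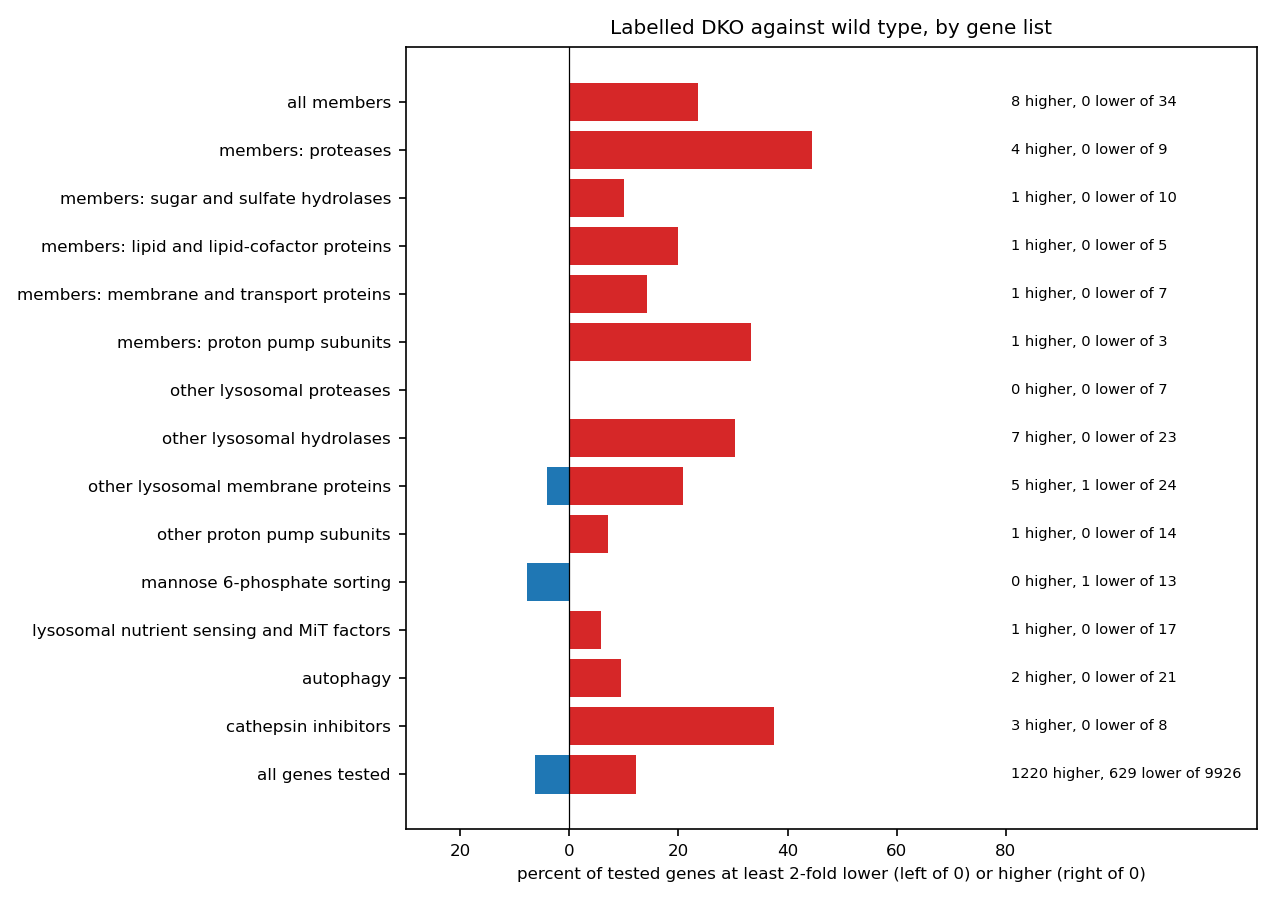
Percent of tested genes of each list (y axis) called at least 2-fold higher (right of 0) or lower (left of 0) in the library labelled DKO than in wild type (x axis), with the counts at the right. The members gave 8 higher and 0 lower of 34, the other hydrolases 7 and 0 of 23, and all genes tested 1220 and 629 of 9926.

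Because macrophages, dendritic cells and B cells are rich in lysosomal genes, their markers were read in the same libraries. Of 14 macrophage and monocyte markers 0 had a mean of 2 CPM; C1qa, C1qc and Fcgr1 were at 0 reads in every library, and Lyz2 had 1, 5, 0 and 5 reads. The highest of them were Cx3cr1, with 7, 16, 12 and 33 reads, and Itgam, with 16, 13, 9 and 12. The summed level of the list was 2.54, 3.0, 2.10 and 3.87 CPM, beside which Cd68, no part of that list, had 3.0, 5.94, 3.27 and 19.0 CPM. B cell markers summed to 2.54, 4.61, 3.03 and 1.35 CPM, and Pax5 was at 0. Dendritic cell markers summed to 8.31, 16.1, 5.48 and 23.3 CPM. Most of it came from Xcr1 (54, 113, 48 and 322 reads) and Zbtb46 (64, 106, 40 and 71 reads). Itgax, the next by mean level, had 12, 27, 2 and 38 reads, and Siglech had 9, 26, 2 and 0. Clec9a, Cd209a and Flt3 had at most 2 reads. The part of dendritic cell markers in the members' levels was not tested.

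T cell markers were present in every library. Their summed level was 1499 CPM in wild type, 1621 and 1408 in the Itch and WWP2 single knockouts and 2376 in the library labelled DKO, and Cd4, Cd3g and Thy1 were among the genes called higher there. The CD8 marker Cd8a had at most 9 reads, and Cd8b1 had 127, 267, 108 and 129. NK cell markers summed to between 2.37 and 6.34 CPM, neutrophil markers to between 0.0577 and 1.18, mast cell and basophil markers, nearly all from Kit, to between 5.38 and 28.9, and erythroid and platelet markers to between 1.61 and 2.37. What part these levels have in the members' differences was not tested.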

How the data were processed

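The authors deposited raw counts of reads per gene symbol, in 1 table of 4 libraries, without normalization. Per the submitters' processing notes, HTSeq 0.7.1 was used with TopHat 1.4.1, Bowtie 1.0.0 and mm9; annotation and strand setting were not stated there, so overlapping or antisense genes cannot be told apart. Counts were scaled by TMM factors from all libraries (edgeR 4.0.16, R 4.3.3). All else ran in Python 3.11.15 with scipy 1.17.1, pandas 2.3.3, numpy 2.4.6 and, for plots, matplotlib 3.10.9.

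Each library is the only one of its genotype, so a size rule replaced a test: a log2 ratio of 1 or more in either direction with a prior count of 2, a mean of at least 2 CPM, and an exact conditional binomial 95% interval of the fold that excludes 1. Reads carried no molecular identifiers and can repeat a molecule, so intervals cover counting error only. Members and lists were chosen with earlier results of these data known. Named genes were all members, Itch and Wwp2, up to 2 highest and 2 lowest called genes of each further list, and the top markers by mean CPM; markers at or near 0, and neighbours of a threshold, were named after their values were seen. Some genes that the rule names are not reported here. Genes listed under newer names were matched to older symbols through RefSeq. Alternatives covered scaling, filter, prior count and fold threshold.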

Additional observations from a re-analysis of the deposited data

How the results depend on the processing

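Counts of called members depended on the filter and the fold threshold more than on scaling. A minimum mean of 10 CPM left 27 members; higher calls then numbered 4 for the library labelled DKO against wild type, 4 against Itch KO (with 0 lower) and 5 against WWP2 KO, and 0 for Itch KO against wild type or WWP2 KO, because Lgmn, Grn, Cd68, Arsa and Ctsl lie under that minimum. With no low filter Itch KO had 2 higher against wild type and 2 against WWP2 KO, and the library labelled DKO had 9 against WWP2 KO, Ctsh being added in each. A threshold of 1.5-fold gave 6 higher and 3 lower for Itch KO against wild type, 4 and 3 for Itch KO against WWP2 KO, 18 and 3 for the library labelled DKO against wild type, 16 and 1 against Itch KO, and 18 and 4 against WWP2 KO. All 9926 genes gave 1933 higher and 1435 lower by that threshold in the comparison with Itch KO, 1950 and 1665 in that with WWP2 KO, and 796 and 540 for Itch KO against WWP2 KO. Upper quartile factors gave 1 lower member against WWP2 KO, Ctsl at -1.0. The share of all genes called was not counted under these factors or the changed filters, so those counts of members stand without a background. Size factors of DESeq2's median-of-ratios method and a prior count of 0.5 changed the call of 0 members. The median log2 ratio of the members stayed between 0.66 and 0.76 for the library labelled DKO against wild type, and between 0.06 and 0.11 for Itch KO, over all alternatives run. No replicate could be left out, with 1 library per genotype. No paired analysis was possible because each genotype has only the number 1. Ctsh and Cd63 have at most 17 reads in a library, and the minimum level keeps both out of the reported counts.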

Other observations

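Autophagy and nutrient sensing, which work together with the lysosome, were read with lists of their own. Among autophagy genes, which deliver cytoplasm to lysosomes, 2 of 21 tested were at least 2-fold higher and 0 lower in the library labelled DKO than in wild type, with a median log2 ratio of 0.22. Over all genes tested 12.3% were higher, so the autophagy count was no larger a share than the background. The called genes were Atg9a, the membrane protein of early autophagic vesicles, at 2.93-fold (95% counting interval 2.33 to 3.70), and Map1lc3a, an LC3 gene, at 2.63-fold (2.03 to 3.45). In Itch KO 0 of 21 were called, and Map1lc3a stood at 1.99-fold (1.51 to 2.64).

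Among genes of nutrient sensing at the lysosome surface, 1 of 17 was higher and 0 lower in Itch KO and likewise in the library labelled DKO. Among all genes tested 4.89% and 12.3% were higher, so neither count stands out from the background. The called gene was Rragd in both, a Rag GTPase that helps recruit mTORC1, which had 217 reads in wild type, 602 and 224 in the Itch and WWP2 single knockouts and 594 in the library labelled DKO. It was 2.77-fold above wild type in Itch KO (2.37 to 3.25) and 2.55-fold in the library labelled DKO (2.18 to 3.0). The library labelled DKO and Itch KO were within counting error of each other for Rragd, at 0.921-fold (0.821 to 1.03), whereas for Tcfeb the ratio was 1.62-fold (1.18 to 2.24).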
